A study of Mus musculus with 14 samples.

Results

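Reprogrammed AID-null clones were compared with the AID-null bulk culture of the same age, to ask how the DNA methylation of picked colonies differed from that of the mixed culture. The comparison takes 4 of the 14 samples of the series, namely the 3 libraries of AID-null clones and the 1 library of the AID-null 3-week culture, all made by reduced representation bisulfite sequencing (RRBS). It uses the cytosines listed in all 4 libraries, 1448125 in number, against 1822333 to 2154007 listed per library. After an upper limit on coverage 1445179 positions remained, of which 1416140 were autosomal and 28540 were on X.

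The series covers wildtype and AID-null tail fibroblasts of the mouse, before and after reprogramming, with methylation in 10 libraries and RNA in 4 of the 14. The AID-null clones were tail fibroblast colonies picked at 2 weeks and measured after 3 weeks of reprogramming, and the AID-null 3-week culture was the unpicked population at 3 weeks. Both sides therefore carry the same null genotype, and the untreated AID-null tail fibroblasts are used below as the starting point. The reprogramming factors and the ages of the mice are not given in the sources used here. Nor do the labels say whether the clones came from separate mice or dishes. Any p-value given below therefore only sets a difference against the spread between these 3 clones, moderated across tiles or promoters. The bulk side has no replicate.

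Methylation of cytosine in CpG dinucleotides is copied at cell division and is kept low at most CpG-rich promoters. During reprogramming to pluripotency the methylation pattern of the fibroblast is replaced, including at genes of the germline that somatic cells hold silent by promoter methylation. AID, activation-induced deaminase, deaminates cytosine and has been studied as a possible contributor to active demethylation. A level in RRBS is the percent of reads at a cytosine that were methylated, averaged over the cells of the library. An intermediate level can therefore come from cells of 2 kinds or from partly methylated DNA in every cell, and these cannot be told apart here.

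Promoters were given names by finding each RefSeq promoter sequence (build GRCm38.p6, 250 bases before to 50 after the gene's start) on the deposited mm9 positions through the spacing of its CpGs. The following 5 are shown because the results turn on them: 3 germline genes with lower methylation in the clones, the imprinted Igf2r, and the promoter with the largest positive difference among named genes. Capitals mark CpGs with at least 1 cytosine listed in all 4 libraries. Ddx4 lies at chr13:113442469-113442768 on the minus strand, Sohlh2 at chr3:54985716-54986015 on the plus strand and Hormad1 at chr3:95363349-95363648 on the plus strand. Igf2r lies at chr17:12962523-12962822 and Oxgr1 at chr14:120441608-120441907, both on the minus strand. Sequences run from 5′ to 3′ along each gene.
Ddx4: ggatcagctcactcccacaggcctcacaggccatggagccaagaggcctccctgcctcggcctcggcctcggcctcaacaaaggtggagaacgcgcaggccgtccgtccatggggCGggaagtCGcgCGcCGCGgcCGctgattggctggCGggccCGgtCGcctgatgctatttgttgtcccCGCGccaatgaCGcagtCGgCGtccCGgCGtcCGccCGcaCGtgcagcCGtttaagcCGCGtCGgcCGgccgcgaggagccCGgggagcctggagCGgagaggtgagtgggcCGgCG
Sohlh2: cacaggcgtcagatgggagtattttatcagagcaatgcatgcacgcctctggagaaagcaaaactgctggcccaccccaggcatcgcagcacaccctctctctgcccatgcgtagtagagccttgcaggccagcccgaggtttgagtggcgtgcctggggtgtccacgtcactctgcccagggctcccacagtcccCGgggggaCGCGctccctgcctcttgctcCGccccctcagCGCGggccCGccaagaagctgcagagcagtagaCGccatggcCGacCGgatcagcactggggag
Hormad1: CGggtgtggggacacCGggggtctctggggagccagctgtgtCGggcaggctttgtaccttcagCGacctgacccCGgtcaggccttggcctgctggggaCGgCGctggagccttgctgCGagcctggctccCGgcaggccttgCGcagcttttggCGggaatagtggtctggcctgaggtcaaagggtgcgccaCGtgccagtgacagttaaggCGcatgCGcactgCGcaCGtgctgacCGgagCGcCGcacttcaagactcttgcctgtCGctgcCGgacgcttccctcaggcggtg
Igf2r: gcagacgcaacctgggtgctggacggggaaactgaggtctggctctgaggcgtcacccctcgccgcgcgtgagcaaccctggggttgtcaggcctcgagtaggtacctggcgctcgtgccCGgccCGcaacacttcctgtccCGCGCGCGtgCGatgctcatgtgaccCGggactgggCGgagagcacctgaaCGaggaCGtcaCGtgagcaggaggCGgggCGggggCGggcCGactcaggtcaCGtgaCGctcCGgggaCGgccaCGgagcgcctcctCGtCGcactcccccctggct
Oxgr1: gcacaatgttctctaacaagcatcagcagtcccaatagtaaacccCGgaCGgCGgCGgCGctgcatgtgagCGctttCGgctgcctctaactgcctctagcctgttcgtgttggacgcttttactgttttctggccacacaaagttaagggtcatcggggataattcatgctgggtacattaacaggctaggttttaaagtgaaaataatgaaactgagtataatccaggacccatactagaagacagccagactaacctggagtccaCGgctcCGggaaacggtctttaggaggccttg

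Coverage summed over the listed cytosines was 236887310, 229745779 and 296572452 in clones 1 to 3 and 295179206 in the culture. Median coverage was 98, 99 and 110 in the clones and 116 in the culture. A read counts once for each listed cytosine that it covers, here and in the read counts of tiles and promoters below. On mitochondrial DNA, which gauges incomplete conversion, 0.0832% to 0.143% of reads were methylated in these libraries. Chromosome 1 took 7.19% of the coverage in clone 1, against 5.84% and 5.86% in clones 2 and 3 and 5.85% in the culture, a ratio of 1.23. No other chromosome departed from the remaining libraries by a ratio over 1.03. RNA was measured in the AID-null 3-week culture and in fibroblasts but not in clones. The 7 pluripotency markers checked were all present in the culture, at 137 to 3264 FPKM and a sum of 6414 FPKM, against 7.99 FPKM summed in fibroblasts. The 6 fibroblast markers summed to 6272 FPKM in the culture and 67553 FPKM in fibroblasts, so the bulk culture still held fibroblast RNA. Col1a1 and Col1a2 held most of the fibroblast sum, at 30836.5 and 29182.6 FPKM, and read 1143 and 1900 FPKM in the culture. Thy1 read 1433 FPKM in the culture and 1861 FPKM in fibroblasts, and Pdgfra was higher in the culture, at 283 against 203 FPKM. The 5 macrophage markers summed to 112 and 741 FPKM in the culture and in fibroblasts, and the 3 muscle markers to 96.8 and 15.4 FPKM. The muscle sum was mostly Mylpf, at 95.4 and 10.6 FPKM. Actc1 (0 and 2.78 FPKM) and Myh3 (1.44 and 2.02 FPKM) were lower in the culture. Of 4 keratinocyte markers 2 were at 0 in the culture. The part that the remaining fibroblasts or other cells take in the methylation of the culture was not tested, and fewer cells of a type cannot be told apart from a lower level in each.

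The overall level of the culture lay within the range of the clones, but every clone held more positions near 0 and near full methylation and fewer between. Autosomal positions averaged 26.3%, 24.0% and 30.2% in clones 1 to 3 and 27.1% in the culture. The culture thus lay between the clones, and the difference of −0.28 points was small against the clone SD of 3.13 (n = 3). Equal weight for each 1000 bp tile with at least 3 positions (113198 tiles) gave 47.5%, 43.3% and 54.7% in the clones and 48.5% in the culture, a difference of 0.054 ± 5.74 points (clone SD, n = 3). Clone 3 was above the culture by both measures and clone 2 below it. Pooled over reads the level was 22.6%, 21.4% and 24.8% in the clones and 24.8% in the culture. Counting error (95% Wilson interval) was at most 0.0057 points to each side. Such intervals cover counting error only and treat the counts of a read at several cytosines as independent. On X the clones read 31.6%, 28.7% and 34.8% and the culture 31.9%.

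The shape of the distribution separated the clones from the culture. Positions between 20% and 80% made up 21.3%, 23.9% and 19.8% of autosomal positions in clones 1 to 3 and 30.03% in the culture. All 3 clones lay below the culture, by a mean of −8.35 points against a clone SD of 2.10. The share of positions at 90% or more was 8.56%, 5.66% and 10.9% in the clones and 3.08% in the culture. The share at 80% or more was 15.0%, 11.2% and 19.9% in the clones and 10.4% in the culture, a difference of 4.94 points with a clone SD of 4.34. Positions under 10% made up 60.5%, 61.5% and 57.3% in the clones and 56.6% in the culture. By positions every clone therefore exceeded the culture at both ends. Clone 2 was highest at the low end and clone 3 at the high end. From 80% to 90%, however, clones 1 and 2 (6.48% and 5.54%) were below the culture (7.35%) and clone 3 (9.00%) above it. Over tiles the share between 20% and 80% was 47.3%, 54.7% and 39.5% in the clones and 61.4% in the culture. Tiles at 80% or more made up 21.7%, 12.7% and 34.4% in the clones and 13.3% in the culture, so clone 2 was below the culture there. For any such value 3 clones against 1 culture have 4 arrangements, so that an exact permutation p cannot fall below 0.25, and no p is given.

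**Figure D1:**
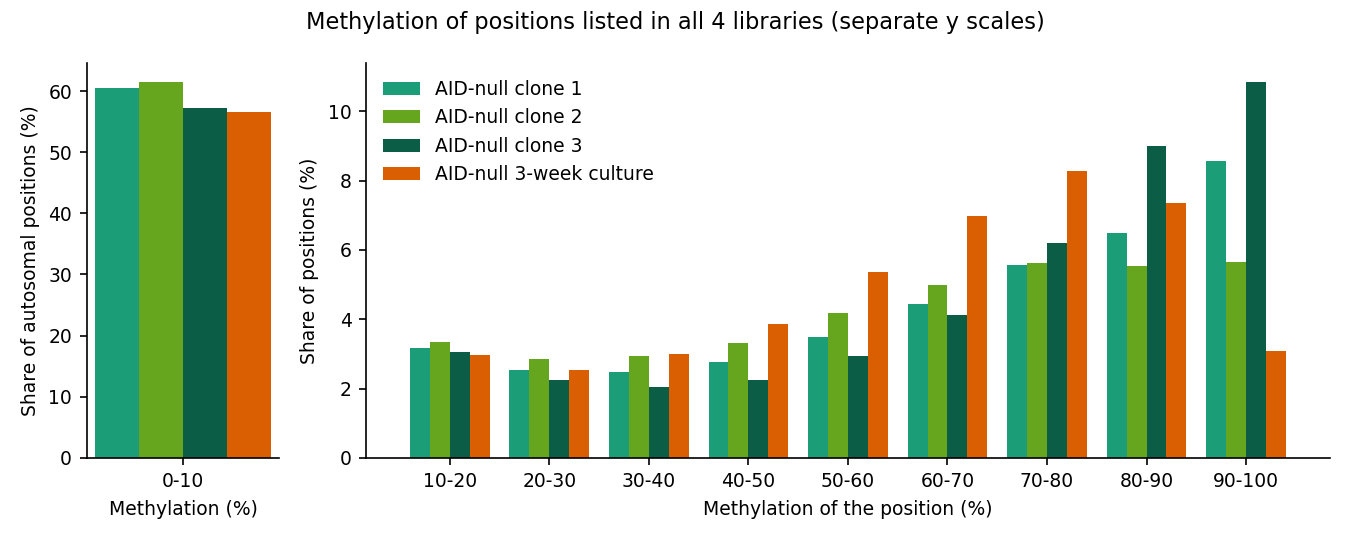
Share of autosomal positions (y, percent of 1416140) in each class of methylation (x, percent) for AID-null clones 1, 2 and 3 and the AID-null 3-week culture, 1 bar per library, with a separate y scale for the class under 10%. From 40% to 80% the culture has the tallest bars, and at 90% to 100% its share of 3.08% is below the 5.66% to 10.9% of the clones.

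Tiles dense in listed positions, used here as a stand-in for CpG-dense DNA, were less methylated in every clone than in the culture. Tiles with 30 or more listed positions (10684 tiles) averaged 1.21%, 1.05% and 1.82% in the clones and 2.07% in the culture, a difference of −0.71 points with a clone SD of 0.41. At 50 or more positions the clones read 0.614%, 0.540% and 0.938% and the culture 1.11%. Tiles with 20 to 29 positions read 7.78%, 6.76% and 10.4% in the clones and 10.6% in the culture. Below that density the order changed: tiles with 10 to 19 positions read 31.8%, 28.5% and 38.4% in the clones and 35.7% in the culture, and tiles with 3 to 9 positions read 58.1%, 53.1% and 66.5% in the clones and 58.5% in the culture. Clone 3 was above the culture in both of these sparser classes.

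The differences between clones and culture varied with the level of a tile in the starting fibroblasts, and clone 3 lay above the culture in every class. Tiles methylated at 80% to 100% in AID-null fibroblasts (42591 tiles, mean 89.6%) averaged 69.9%, 64.0% and 77.5% in clones 1 to 3 and 73.2% in the culture. Their clone mean was 2.73 points below the culture, within the clone SD of 6.77. Tiles at 10% to 30% in fibroblasts (7648 tiles, mean 19.5%) averaged 34.1%, 30.8% and 43.9% in the clones and 28.8% in the culture. In that class all 3 clones exceeded the culture, which itself exceeded the fibroblasts. Tiles under 10% in fibroblasts (26013 tiles, mean 1.48%) read 3.73%, 3.36% and 5.69% in the clones and 3.51% in the culture, and although 2 of these means were above the culture, all 3 clones were below it in 30.4% of these tiles and above it in 14.3%. Tiles at 60% or more read 66.6%, 60.8% and 74.9% in the clones and 69.4% in the culture, and without clone 2 the sign of that difference turned, to 1.32 points. These are classes of the fibroblast library, which lies on neither side of the comparison.

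Tiles where the clones and the culture did not overlap were also divided by the fibroblast level. A tile was counted when all 3 clones lay on one side of the culture and their mean differed from it by at least 25 percentage points. By this rule 3784 of 113198 tiles (3.34%) were lower and 2984 (2.64%) were higher in the clones. Without clone 3 the numbers were 7807 lower and 2115 higher, and without clone 2 they were 2439 lower and 4715 higher. The balance of directions therefore depended on which clone was kept. Of the lower tiles also covered in fibroblasts, 3730 in number, 92.0% were at 60% or more in fibroblasts, against 57.1% of all tiles. They averaged 19.08%, 15.3% and 33.5% in the clones, 53.7% in the culture and 81.7% in fibroblasts. Of the 2920 higher tiles covered in fibroblasts 88.8% were under 60% there, against 42.9% of all tiles. They averaged 74.8%, 69.8% and 81.6% in the clones, 44.0% in the culture and 30.6% in fibroblasts. The culture thus stood between clones and fibroblasts: fibroblasts were above the culture in 95.3% of the lower tiles and below it in 79.0% of the higher tiles, against 68.4% above and 30.8% below in tiles of neither kind. The culture has a part in choosing these tiles, so these shares are a description. Among tiles at 80% to 100% in fibroblasts 2429 were lower (5.70%) and 89 higher (0.209%), and among tiles at 10% to 30% 18 were lower (0.235%) and 1235 higher (16.1%).

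**Figure D2:**
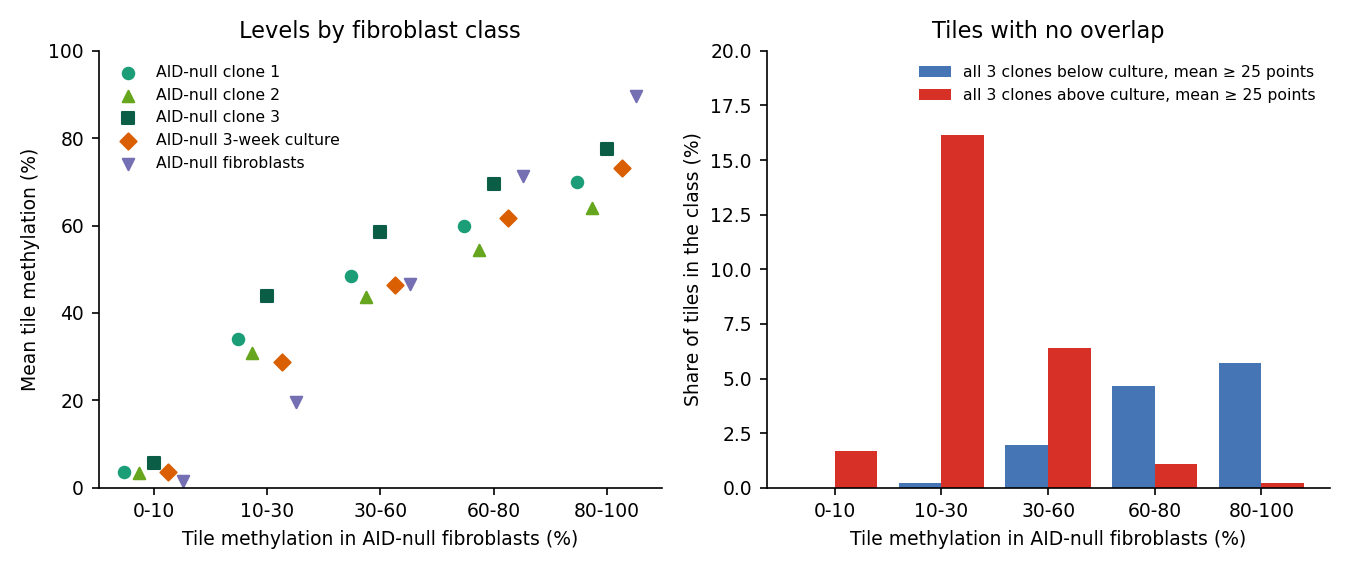
Left, mean tile methylation (y, percent) in AID-null clones 1 to 3, the AID-null 3-week culture and AID-null fibroblasts by the level of the tile in fibroblasts (x, percent). Right, share of the tiles in each class (y, percent) with all 3 clones below or above the culture and a mean difference of at least 25 points: the share above reaches 16.1% at 10% to 30%, and the share below reaches 5.70% at 80% to 100%.

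Loss from fibroblast-methylated tiles was more frequent where listed positions were dense. Among tiles at 80% to 100% in fibroblasts with 20 or more listed positions (460 tiles), 122 (26.5%) were lower in all 3 clones by a mean of 25 points and 0 were higher. These 460 tiles averaged 45.2%, 39.1% and 55.9% in the clones, 61.5% in the culture and 89.6% in fibroblasts. With 10 to 19 positions 10.2% were lower, and with 3 to 9 positions 4.98% were lower. In the densest class all 3 clone means lay under the culture, by 14.7 ± 8.50 points (clone SD, n = 3), whereas in the sparsest class clone 3 was above it. Conversely, among tiles at 10% to 30% in fibroblasts the share higher in the clones was 19% with 3 to 9 positions, 7.93% with 10 to 19 and 0.581% with 20 or more. In the last of these classes (516 tiles) the direction of the means turned: the clones averaged 8.13%, 6.69% and 12.6% and the culture 13.01%, and all 3 clones were below the culture in 64.5% of the tiles.

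Tests of single tiles used a quasi-binomial model on methylated and unmethylated reads, with the dispersion estimated between the clones and moderated across tiles by limma. The lone culture library was assumed to vary like a clone. With p adjusted after Benjamini and Hochberg, a threshold of 0.05 and a minimum difference of 25 points, 372 tiles (0.329%) fell and 72 tiles (0.0636%) rose in the clones. All 444 were among the tiles without overlap. The tiles that fell averaged 4.22%, 2.95% and 11.2% in the clones, 40.1% in the culture and 80.4% in fibroblasts. The tiles that rose averaged 84.0%, 79.7% and 88.4% in the clones, 39.2% in the culture and 18.5% in fibroblasts. The model gave 9762 tiles (8.62%) at an unadjusted p under 0.05. The number of calls rested on the model and on single clones: limma on logits, edgeR's quasi-likelihood test and the same model without the dispersion trend called 0, with 4543, 5288 and 9190 tiles at an unadjusted p under 0.05. Without clone 1 the model called 0 tiles, with 1801 at an unadjusted p under 0.05, without clone 2 it called 1, and without clone 3 it called 7110.

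The 10 called tiles with the largest differences, 5 in each direction, lay 8997 to 462911 bp from the nearest placed promoter. Promoters were placed for only 6890 genes, so an unplaced promoter can lie closer to any of these tiles. The tile chr7:29947001-29948000 (mm9) read 1.85% or less in each clone, 58.3% in the culture and 97.0% in fibroblasts, with 3 positions and as few as 47 reads in a library (adjusted p = 0.0149, quasi-binomial model with limma-moderated dispersion). The tile chr3:108209001-108210000 lay 8997 bp from the placed promoter of Celsr2, an adhesion receptor gene of planar cell polarity. It read 17.3%, 6.44% and 15.7% in the clones, 67.6% in the culture and 88.2% in fibroblasts (adjusted p = 0.0137 in the same model). The remaining 3 of the 5 tiles that fell most, on chromosomes 10, 11 and 17, had differences of −53.4 to −54.8 points. The largest positive difference, 87.5 points at chr13:98798001-98799000, rested on 3 positions with as few as 36 reads in a library. The tile chr13:52120001-52121000 read 85.9%, 65.1% and 81.3% in the clones, 14.4% in the culture and 5.12% in fibroblasts (adjusted p = 0.0138 in the same model). The tile chr2:49696001-49697000 read 88.2%, 87.3% and 84.1% in the clones, 29.5% in the culture and 13.1% in fibroblasts (adjusted p = 0.0252 in the same model). At chr10:8276001-8277000 the clones themselves spread widely, at 8.25%, 23.6% and 63.8%, with the culture at 86.0% and fibroblasts at 99.5%. In the 4 tiles given in full the clones lay beyond the culture on the side away from the fibroblasts. The 10 tiles named by size lost their calls in limma on logits, in edgeR, in the model without the trend, without clone 1 and without clone 2, and kept them without clone 3. With wildtype clones added to the spread 3 of them lost the call.

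The clones also differed among themselves. The median range between the lowest and the highest clone was 12.6 points over all tiles, and 17.1% of tiles had a range of at least 25 points. The culture lay between the clones in 52.4% of tiles, above all of them in 23.1% and below all of them in 24.5%. Clone 3 was the most methylated in 72.8% of tiles and clone 2 the least in 63.7%. In 878 tiles (0.776%) the range reached 50 points. These averaged 42.7%, 30.1% and 77.7% in clones 1 to 3 and 57.4% in the culture, and clone 3 was the highest in 89.9% of them. Taken one at a time, clone 1 had 3555 tiles higher and 6755 lower than the culture by at least 25 points, clone 2 had 1895 higher and 10612 lower, and clone 3 had 8687 higher and 1247 lower. On chromosome 1, where clone 1 had the extra coverage, the levels were 28.2%, 25.9% and 32.0% in the clones and 28.4% in the culture, and 2.64% of tiles were lower and 2.97% higher in the clones without overlap.

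Promoters were placed for 6890 genes, of which 6888 had at least 5 positions. Most were unmethylated on both sides: they averaged 0.780%, 0.711% and 1.20% in clones 1 to 3 and 1.08% in the culture, and 6567 (95.3%) were under 5% in all 4 libraries. By the same rule 7 promoters (0.102%) were lower in all 3 clones by a mean of at least 25 points and 2 (0.029%) were higher. Without clone 3 there were 21 lower and 1 higher, and without clone 2 there were 4 lower and 7 higher, so the balance of directions rested on single clones. The quasi-binomial model fitted across all placed promoters called 0 lower (0%) and 0 higher (0%). Without the 25-point limit 6 had an adjusted p under 0.05, and 316 had an unadjusted p under 0.05, and no other tool was run on promoters. The 6 include Nfatc2, Gm40881 and Gm3134, with differences of −16.6, −17.6 and −12.0 points. At a mean difference of 10 points, a limit chosen after the data were seen, 46 promoters were lower (0.668%) and 13 higher (0.189%) without overlap.

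Methylation was higher with distance from the placed starts on both sides. In the 500 bp downstream of the start, positions averaged 0.522%, 0.472% and 0.784% in the clones, 0.701% in the culture and 0.982% in fibroblasts. In the bin from 2500 to 2999 bp downstream they averaged 31.2%, 26.6% and 37.7% in the clones, 37.3% in the culture and 47.3% in fibroblasts. In both bins clones 1 and 2 lay below the culture and clone 3 a little above it, while all 4 libraries lay below the fibroblasts.

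**Figure D3:**
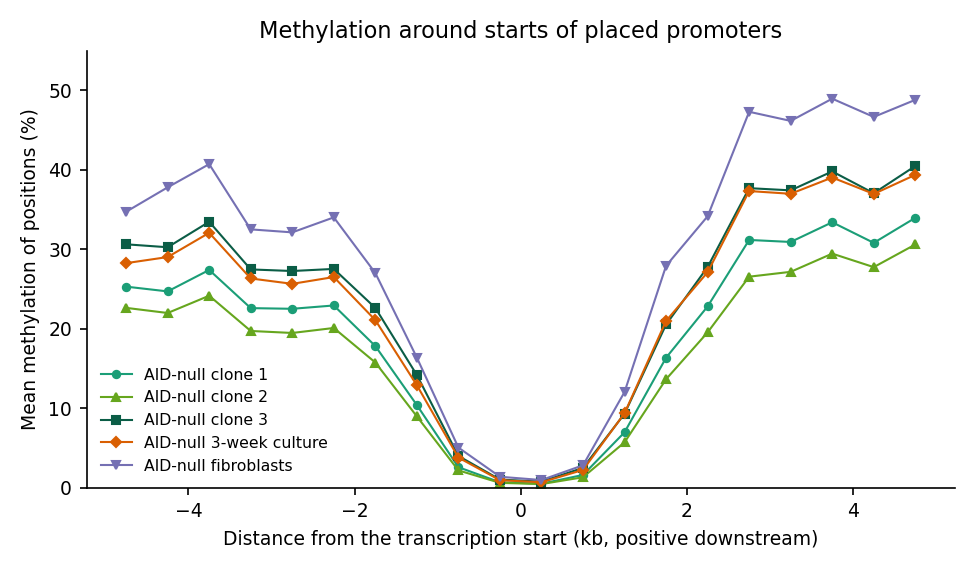
Mean methylation of listed positions (y, percent) in 500 bp bins by distance from the start of placed genes (x, kb, positive downstream), 1 line per library. Every line is lowest at the start, and at 2500 to 2999 bp downstream clone 3 (37.7%) and the culture (37.3%) nearly coincide above clones 1 and 2 (31.2% and 26.6%) and below fibroblasts (47.3%).

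Of the 10 named promoters with the most negative differences Ddx4 alone is on the germline list used below. Ddx4, which encodes the germ cell RNA helicase Vasa, read 9.82%, 10.5% and 17.7% in clones 1 to 3, 40.6% in the culture and 89.2% in fibroblasts, over 45 positions with at least 4679 reads per library. All 3 clones were under 20% and the groups did not overlap; the mean difference was −28.0 points with a clone SD of 4.34. Its RNA was at 8.78 FPKM in the culture and 19.6 FPKM in fibroblasts. Zglp1, a regulator of germ cell development, read 5.78%, 11.7% and 20.4% in the clones, 42.6% in the culture and 78.7% in fibroblasts. Sohlh2, a transcription factor of early germ cells, read 5.66%, 6.54% and 18.7% in the clones, 34.0% in the culture and 95.6% in fibroblasts. Its RNA was at 64.8 FPKM in the culture and listed at 0 in fibroblasts. Hsf5, a heat shock factor family gene of the testis, read 10.6%, 9.92% and 26.8% in the clones, 40.7% in the culture and 89.8% in fibroblasts. Dmrtb1, a regulator of the entry of spermatogonia into meiosis, read 10.5%, 8.01% and 21% in the clones, 37.3% in the culture and 93% in fibroblasts. In each of these, clone 3 was the highest of the clones and still below the culture.

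The remaining promoters among the 10 with the most negative differences had similar levels. Yy2, an X-linked relative of the transcription factor gene Yy1, read 8.25%, 2.63% and 12.1% in the clones, 33.0% in the culture and 95.8% in fibroblasts. Crygn, a lens crystallin gene, read 8.80%, 4.07% and 16.3% in the clones, 34.8% in the culture and 62.2% in fibroblasts. CN725425, for which no role is given here, had the lowest value of all named promoters relative to the culture, at 5.67%, 2.77% and 13.8% in the clones and 39.7% in the culture. Prr23a2 and Prr23a3 belong to one multigene family, whose copies can share reads, and their values are uncertain. They had mean differences of −22.7 and −21.5 points. For these 10 promoters the adjusted p of the quasi-binomial model with limma-moderated dispersion over all placed promoters was 0.278 to 0.922, so none passed the test.

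Among genes on the germline list, which holds 18 genes that somatic cells silence by promoter methylation, 8 could be placed. Of these 4 were lower in all 3 clones by at least 10 points, against 0.668% of placed promoters, and 0 were higher by that much; 1 passed the limit of 25 points, against 0.102%. The median difference was −16.3 points, against 0.0023 points over all placed promoters. Most placed promoters were unmethylated everywhere and could not be lower, whereas all 8 were at 86.2% or more in fibroblasts. Of the 54 placed promoters at 60% or more in fibroblasts, 29 were lower by 10 points, so 4 of 8 is close to the share of promoters with a like starting level. Besides Ddx4, these were Hormad1, Slc25a31 and Mael. Hormad1, a protein of the meiotic chromosome axis, read 19%, 19% and 40.7% in the clones, 44.3% in the culture and 86.2% in fibroblasts, with RNA at 38.0 FPKM in the culture and listed at 0 in fibroblasts. Mael, of the piRNA pathway, read 12.2%, 12.5% and 27.5% in the clones, 33.5% in the culture and 90.6% in fibroblasts. Slc25a31, an ADP/ATP carrier of the testis, read 30.1%, 33.1% and 55% in the clones and 55.8% in the culture. In the last of these clone 3 reached almost the level of the culture.

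The other 4 placed germline promoters overlapped between clones and culture. Dazl, an RNA-binding protein of germ cells, read 20.3%, 34.5% and 75.7% in the clones, 63.8% in the culture and 96.3% in fibroblasts, so clone 3 was above the culture and clones 1 and 2 well below it. Sycp1, of the synaptonemal complex, read 50.8%, 48.5% and 56.8% in the clones and 55.9% in the culture. Asz1, a piRNA pathway gene, read 51.5%, 56.3% and 62.7% in the clones and 54.4% in the culture. Tex101, which encodes a germ cell surface protein, read 63.7%, 62.3% and 85.4% in the clones and 63.3% in the culture.

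**Figure D4:**
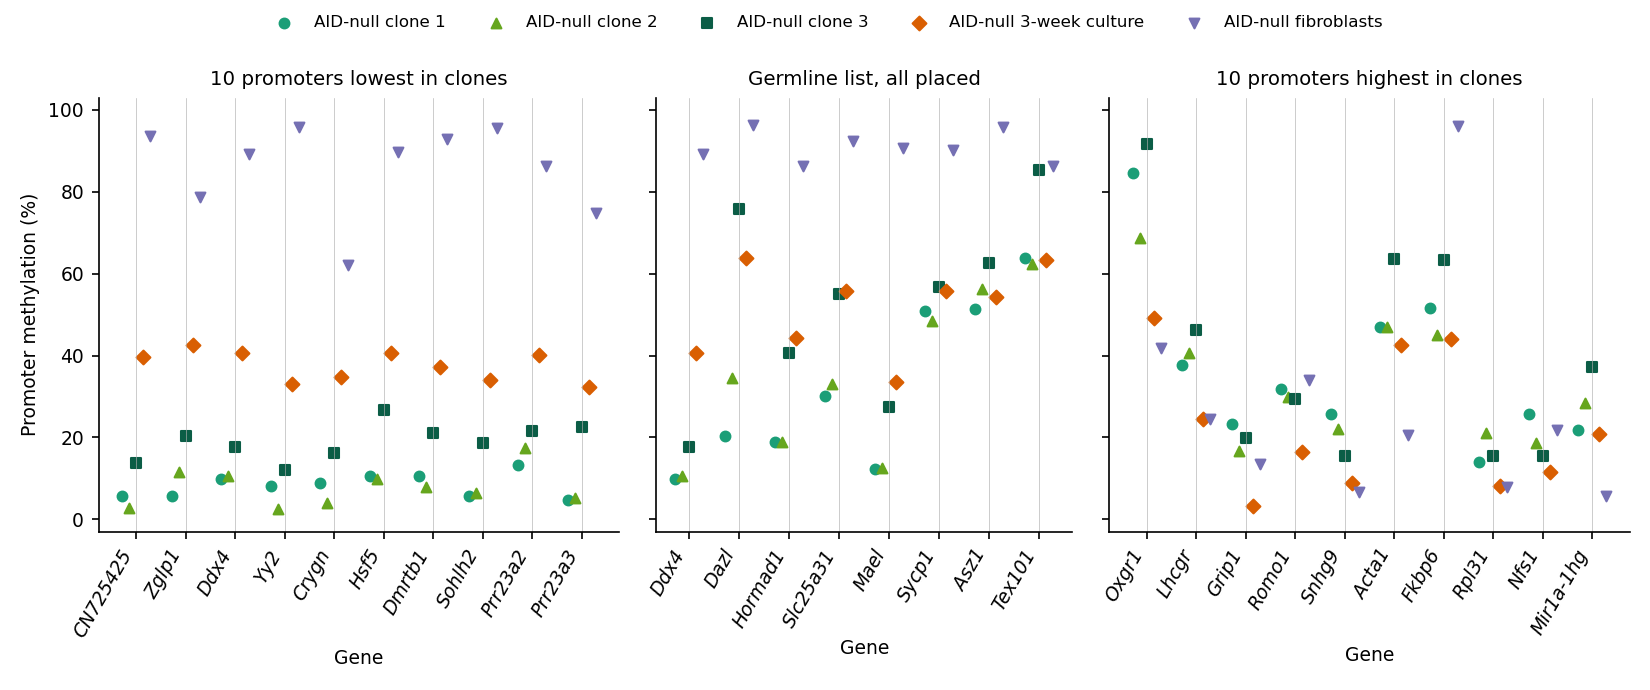
Methylation of single promoters (y, percent) in AID-null clones 1 to 3, the AID-null 3-week culture and AID-null fibroblasts, 1 point per library. In the left panel, the 10 named promoters with the most negative differences, all clones lie below the culture and the fibroblasts above it. The middle panel gives the 8 placed germline promoters, of which 4 overlap, and the right panel the 10 named promoters with the most positive differences, led by Oxgr1.

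Promoters methylated in fibroblasts were then taken as a group. There were 54 placed promoters at 60% or more in AID-null fibroblasts. They averaged 30.7%, 27.9% and 45.5% in clones 1 to 3, 46.7% in the culture and 83.7% in fibroblasts. In 30 of them all clones were below the culture and in 6 all were above, against 28.7% and 13.9% of all placed promoters. Of the 46 promoters lower in the clones by 10 points 29 were in this group, and in 45 of the 46 the fibroblasts were above the culture. Of the 13 higher by 10 points the fibroblasts were below the culture in 7. The culture has a part in choosing these promoters, and the share over all placed promoters was not computed, so both counts are a description. Of these 46, 15 carry provisional symbols. RNA was listed for 28 of the 46: 24 were at 1 FPKM or more in the culture and 13 in fibroblasts, 20 were higher in the culture and 4 lower, and the medians were 8.46 and 0.4 FPKM. Of all placed promoters with RNA 93% were at 1 FPKM or more in the culture, a higher share than 24 of 28, and 44.0% were higher in the culture. No RNA was measured in the clones, so these values describe the culture and the fibroblasts alone.

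Several of the 46 outside the rule for naming genes belong to other families, and they are named here after their values were seen. The T-box gene Tbx1 read 8.88%, 6.86% and 10.9% in the clones and 26.7% in the culture. Nfatc2, a calcium-regulated transcription factor, read 0.215%, 0.310% and 1.64% in the clones and 17.3% in the culture. Hoxa5, a patterning gene, read 2.07%, 0.405% and 8.52% in the clones and 15.6% in the culture. Naa11 and Papolb, retroposed genes of the testis, read 9.36% to 29.4% and 2.73% to 11.3% in the clones and 38.6% and 27.4% in the culture. Each of these promoters was more methylated in fibroblasts than in the culture, at 37.9% to 87.2%.

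Imprinted genes are expressed from one parental copy, and some of their promoters are methylated on one copy only. Of 24 on the list 8 could be placed, 4 of them lower in all clones, against 28.7% of placed promoters, and 1 by more than 10 points, against 0.668%. Igf2r, the receptor that clears insulin-like growth factor II, read 0.972%, 0.580% and 2.32% in clones 1 to 3, 11.6% in the culture and 43.3% in fibroblasts. All clones were nearly unmethylated there and the culture was low (adjusted p = 0.0693, quasi-binomial model with limma-moderated dispersion). Peg12 read 0.111%, 1.06% and 0.351% in the clones, 2.24% in the culture and 34.6% in fibroblasts. Plagl1, a zinc finger gene, read 34.8%, 35.9% and 14.9% in the clones, 32.6% in the culture and 42.2% in fibroblasts. Zrsr1, a retroposed splicing factor gene, read 40.7%, 25.1% and 19.8% in the clones, 20.5% in the culture and 37.5% in fibroblasts. Mcts2 read 22.4%, 17.6% and 15.7% in the clones, 18.8% in the culture and 44.0% in fibroblasts. The last 3 overlapped, and single clones stood apart in different directions, clone 3 at Plagl1 and clone 1 at Zrsr1.

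The 10 named promoters with the most positive differences had smaller differences than the 10 most negative, apart from Oxgr1. The naming rule left out provisional symbols, which 8 of the 13 promoters higher by 10 points carry. Among those left out, Gm33931 was higher in the clones by 25.9 points and Gm36301 by 24.7 points. Oxgr1, which encodes a receptor for oxoglutarate, read 84.5%, 68.6% and 91.7% in the clones, 49.1% in the culture and 41.9% in fibroblasts, a difference of 32.5 points with a clone SD of 11.8 over 9 positions. Its RNA was listed at 0 in the culture and in fibroblasts. Lhcgr, the luteinizing hormone receptor gene, read 37.7%, 40.6% and 46.3% in the clones and 24.6% in both the culture and fibroblasts. Grip1, a scaffold protein of synapses, read 23.4%, 16.7% and 19.9% in the clones, 3.33% in the culture and 13.6% in fibroblasts. Romo1 and Nfs1, mitochondrial genes that start next to each other on opposite strands, share positions and are not independent. Romo1 read 31.8%, 29.8% and 29.4% in the clones and 16.4% in the culture. Fkbp6, a gene of meiosis and the piRNA pathway, read 51.5%, 44.9% and 63.4% in the clones, 44.1% in the culture and 96.2% in fibroblasts, so the clones lay above the culture although fibroblasts were higher still. Acta1, the skeletal muscle actin gene, Mir1a-1hg, the host of a muscle microRNA, Snhg9 and Rpl31 were higher by 8.25 to 12.2 points. The adjusted p of the quasi-binomial model with limma-moderated dispersion for the 10 was 0.776 to 0.970, and none passed.

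Promoters of the remaining lists were close to unmethylated on both sides. All 6 placed of the 40 secondary pluripotency genes were at most 1.24%, among them Fgf4 and Gbx2, and Sox2, the only core pluripotency gene placed of 3, was at most 0.539% in any library. Gbx2, an embryonic transcription factor, read 0.0433%, 0.0910% and 0.0418% in the clones, 1.24% in the culture and 3.44% in fibroblasts. The epithelial genes (3 of 20 placed) were at most 1.5%; Cldn7, a tight junction protein, was at most 0.0505% in the clones, 1.5% in the culture and 5.80% in fibroblasts. The fibroblast matrix genes (3 of 25 placed) were at most 9.20%, reached at Thbs4. The 3 placed of 20 mesenchymal factor genes were at most 0.432%, the 8 placed of 26 polycomb-bound genes at most 3.39%, and the 2 placed of 14 placental genes at most 3.11%. The 11 placed of 14 DNA methylation genes were at most 0.935% and the 9 placed of 20 housekeeping genes at most 0.362%. Of 16 macrophage genes 0 were placed.

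Short motifs were counted in the RefSeq promoter sequences on both strands. CACGTG was found in 8 of the 46 promoters lower in the clones (17.4%), in 10 of the 54 placed promoters at 60% or more in fibroblasts (18.5%), in 10.9% of placed promoters and in 7.15% of all 32851 sequences. The Ddx4, Zglp1, Hormad1, Slc25a31, Mael and Igf2r promoters held it. GCGGGAA was found in 6 of the 46 (13.0%), in 6 of the same 54 (11.1%), in 10.5% of placed promoters and in 4.6% of all sequences, and Ddx4, Hormad1, Slc25a31 and Hsf5 held it. The share of the 46 with CACGTG was thus no higher than among promoters methylated in fibroblasts, and both motifs rest on few promoters.

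The wildtype clones and culture, compared in the same way over 109179 tiles covered in both genotypes, served to place these values. Tiles without overlap numbered 3648 lower (3.34%) and 2813 higher (2.58%) in AID-null clones, and 313 lower (0.287%) and 2293 higher (2.10%) in wildtype clones. The share of positions between 20% and 80% was 21.3%, 24.0% and 19.9% in AID-null clones and 30.1% in the AID-null culture, and 30.4%, 28.5% and 30.2% in wildtype clones and 36.9% in the wildtype culture. In both genotypes each clone had fewer intermediate positions than its culture. Mean tile methylation was 47.0%, 42.8% and 54.1% in AID-null clones and 48.0% in their culture, and 44.1%, 45.8% and 46.3% in wildtype clones and 41.0% in their culture. The wildtype clones all lay above their culture, whereas the AID-null clones spread to both sides of theirs. With 1 culture per genotype the difference between genotypes was not tested. At the promoters shown above, Ddx4 read 17.3%, 22% and 26.4% in wildtype clones and 46% in the wildtype culture. Oxgr1 read 83.7%, 93.5% and 77.4% in wildtype clones and 46.9% in their culture, and Igf2r read 3.22%, 2.99% and 3.69% in the clones and 8.71% in the culture. At each of the 3 the wildtype clones lay on the same side of their culture as the AID-null clones. This did not hold for all promoters named by size. Lhcgr went the other way, at 34.5%, 33.9% and 32.9% in wildtype clones and 36.6% in their culture. At Zglp1, Romo1, Nfs1 and Fkbp6 the wildtype clones lay on both sides of their culture, and at the rest they kept the side. The AID-null libraries also covered 506 to 648 positions on Y, fibroblasts included, and the wildtype clones and culture 27 to 48, so genotype and sex of the cells cannot be told apart.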

How the data were processed

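Per the file headers, the deposited RRBS files give for each cytosine the coverage as a count of reads and the percent of reads that were methylated or converted. The authors listed only positions with a coverage of at least 10. The submitters' processing notes name Bismark and methylKit, TopHat and Cufflinks, and the mouse build mm9, and their versions, trimming and filters are not given in the sources used here. Reads were 51 bases long, per the labels' protocols. The deposited RNA files hold FPKM normalised by the authors, and no RNA read counts were used here.

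Methylated reads were recovered from coverage and percent, and in 2.07% to 4.46% of positions methylated and converted reads together fell short of 100 percent. An upper limit at the 99.9th percentile of each library, 683 to 978 reads, removed positions of extreme coverage. Reads of positions listed in all 4 libraries were added up in tiles of 1000 bp holding at least 3 of them. The 3 clones were tested against the culture by a quasi-binomial model per tile, fitted over all tiles with the dispersion moderated by limma 3.58.1 in R 4.3.3 (trend on binomial information, floor of 1). Calls needed p under 0.05 after Benjamini-Hochberg adjustment together with 25 points or more between clone mean and culture. Alternatives used limma on logits, edgeR 4.0.16 and Fisher's exact test computed in R on pooled reads, together with other filters and left-out clones. Wilson intervals were computed with scipy 1.17.1.

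No mm9 genome or annotation was used. A RefSeq promoter sequence of 300 bases with at least 8 CpGs was placed on its own chromosome where its CpG spacing matched the listed positions, with at least 3 fewer matches at the next best place. Of 32851 sequences 15961 had 8 CpGs, 7731 were placed once and 7727 of these kept the gene order, giving 6890 genes with a median of 16 matched CpGs. Chromosome 18 held no promoter sequences. Named promoters are the 10 most negative and 10 most positive without overlap and with at least 100 reads per library, leaving out provisional symbols, with list members beyond 25 points and the 2 highest of each list. Named tiles are the 5 most negative and 5 most positive called. All members and lists were chosen with earlier results of these data known.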

Additional observations from a re-analysis of the deposited data

How the results depend on the processing

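No paired analysis was possible because the culture is 1 library and shares no more than 1 number with the clones. The count of called tiles depended on the model and on single clones. Against 444 (72 higher, 372 lower), limma on logits called 0, edgeR called 0, the model without the dispersion trend called 0, the model with wildtype clones added to the spread called 722 (192 higher, 530 lower), and Fisher's test on the reads of the clones pooled, which takes no account of the spread between clones, called 6892 (3003 higher, 3889 lower). Leaving out 1 clone in turn gave 0 to 7110 called tiles. Tiles without overlap numbered 3350 (1146 higher, 2204 lower) with at least 5 positions per tile, against 6768, and 6506 to 9922 with 1 clone left out. Promoters without overlap numbered 9 to 22 with 1 clone left out, against 9, and 59 at a limit of 10 points, chosen after the data were seen. With 1 clone left out, the difference ranged from −3.03 to 2.65 points for the mean of tiles, −1.96 to 1.13 for positions, −1.77 to 1.31 on X, −5.70 to 1.32 for tiles at 60% or more in fibroblasts and 0.033 to 1.20 for tiles under 10% there. It kept its sign for positions between 20% and 80% (−9.48 to −7.41), under 10% (2.30 to 4.42) and at 80% or more (2.70 to 7.02), and for dense tiles (−0.94 to −0.55). Of all comparison values and counts recomputed 88 stayed within 1 clone SD of the reported value, or within 1.5 times of a reported count, and 11 counts did not. Staying within 1 SD did not fix the sign: it turned in 7 of 67 comparison values, those of X, positions and fibroblast-methylated tiles without clone 2, and the mean of tiles without clone 3, with 500 bp tiles (−0.23), with at least 5 positions (−1.0) and at a coverage of at least 20 (−0.052). Among named promoters it turned in 11 of 279 values, at promoters where clones and culture overlapped, such as Plagl1 (2.76), Tex101 (−0.29) and Asz1 (−0.51) without clone 3. Of the single promoters and tiles 343 stayed within 1 SD or kept the call, 53 tile values lost the call, and Cldn7 moved by over 1 SD at a coverage of at least 20. The cause of these changes was not tested. Counting error is small over the genome, while single tiles can rest on as few as 36 reads summed over their positions. The culture had no second library.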
